A study of Caenorhabditis elegans with 12 samples.

Results

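Lipid metabolism enzyme and binding genes of the nematode Caenorhabditis elegans were examined for nearby binding sites of the transcription factor ETS-5. Members are the protein-coding genes whose symbol starts with fat-, elo-, acs-, lipl- or lbp- in the RefSeq gene table of the assembly WBcel235. They number 55 of 19971 protein-coding genes on the 6 nuclear chromosomes. There are 7 fat genes (fatty acid desaturases), 9 elo genes (elongases), 22 acs genes (acyl-CoA synthetases), 8 lipl genes (lipases) and 9 lbp genes (lipid binding proteins). Neither the symbols nor the family names draw on any binding value, but the families were chosen with earlier results of these data known.

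Binding was profiled by chromatin immunoprecipitation and sequencing (ChIP-seq) of whole worms fed the bacterium OP50, with an antibody against green fluorescent protein (GFP). The 12 samples form 4 groups of 3, an input and a precipitate each for the wild-type strain N2 and for the strain FQ237, which carries an ets-5-gfp fusion. Only the FQ237 precipitates were analysed here, so no difference from wild type or from input was computed, and windows that the antibody gives without the tag cannot be told apart from ETS-5 sites. The promoter and copy number of the fusion, any other allele in the strain, and the worms' stage were not given in the sources used here. Nothing in the labels says that the replicates came from separate cultures, so their spread may be technical. As the extract is of whole worms, a window does not show in which cells binding took place.

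Fatty acids enter nearly every branch of worm metabolism as acyl-CoA. Acyl-CoA synthetases join a free fatty acid to coenzyme A, after which elongases lengthen the chain and desaturases add double bonds, so that the worm can make polyunsaturated fats itself. Lipases release fatty acids from stored fat or in lysosomes, and the small lipid binding proteins carry fatty acids within and between cells. The intestine is the main fat store of the worm. ETS-5 is known for its role in sensory neurons, and earlier work in worms linked it to intestinal fat and to satiety behaviour.

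Each deposited list gives windows of 400 bp, without height, score or p-value, so the depth behind a window is unknown. There were 3811 windows for replicate 1, 2915 for replicate 2 and 3697 for replicate 3. After merging windows that overlapped, 1788 merged regions were present in every one of the 3 lists (shared regions). A gene counted as near a window or region if the centre was at most 2000 bp beyond one of the gene's ends, or within the gene and at most 500 bp from an end. The gene table gives no strand, so the 5′ and 3′ ends of a gene were not told apart, and the lower or upper end below is that with the lower or higher coordinate. Region positions are in the coordinates of the lists, counted from 1, and their build was not given in the sources used here. Distances run from a window's centre to a gene and are rounded to 1 bp.

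Shared regions lay near 5 of the 55 lipid genes (9.09%), against 7.44% of all protein-coding genes. The members' share was thus close to the background at this setting, and other settings moved it from below to above the share of all genes. The 5 were acs-4, acs-19, acs-20, acs-22 and lipl-2. Among acyl-CoA synthetase genes 4 of 22 lay near a shared region (18.2%), and among lipase genes 1 of 8 (12.5%). None of the 7 desaturase genes, 9 elongase genes and 9 lipid binding protein genes did. The differences between subfamilies rest on a few genes each and were not tested.

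In the separate lists, 10 lipid genes lay near a window of replicate 1 (18.2%), against 13.8% of all protein-coding genes. Replicate 2 had 8 (14.5%, against 11.7%) and replicate 3 had 10 (18.2%, against 15.2%). The mean was 17.0% ± 2.10 (SD, n = 3) for lipid genes and 13.6% ± 1.75 for all genes, and the share of lipid genes was the higher in each of the 3 lists. As both shares come from the same lists, which themselves overlap, this was not tested. The acs genes were the highest of the 5 subfamilies in every replicate, with 7, 6 and 7 genes (30.3% ± 2.62 of 22, SD, n = 3). For lipl genes the counts were 1, 1 and 2, for fat genes 1, 1 and 0, and for lbp genes 1, 0 and 1. No elo gene lay near a window in any list.

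**Figure D1:**
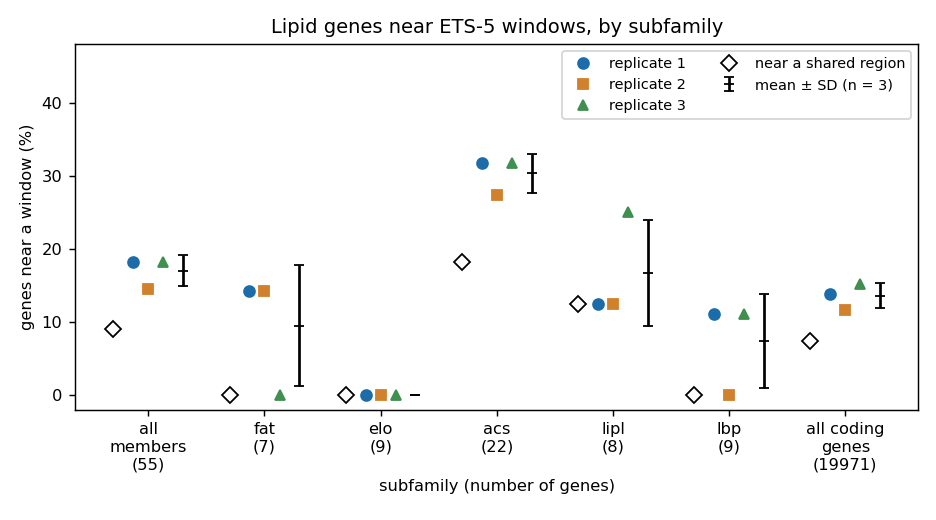
Share of genes near a window, in percent of the genes of each subfamily (number of genes in brackets), for each replicate (filled symbols), as mean ± SD over 3 replicates (bars) and for shared regions (open diamonds). The acs genes reach 31.8%, 27.3% and 31.8% in replicates 1 to 3, the elo genes stay at 0, and all protein-coding genes are at 13.8%, 11.7% and 15.2%.

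Counting any list, 13 lipid genes had a window near them (23.6%, against 20.4% of all protein-coding genes), and 42 had none. A region of at least 2 replicates lay near 9 of them (16.4%, against 12.5%). Gene length differed between the subfamilies, with a median of 3148 bp for acs genes and 861 bp for lbp genes, against 2006 bp for all protein-coding genes. The median distance from a lipid gene to its nearest shared region was 23130 bp, and that of all protein-coding genes was 23687 bp. By subfamily the medians were 8825 bp for lipl, 13558 bp for acs, 24434 bp for fat, 70802 bp for lbp and 85372 bp for elo genes. Several members are neighbours, such as lbp-1, lbp-2 and lbp-3, so their distances describe the same locus and are not independent.

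The acs genes near shared regions do not all belong to the same branch of acyl-CoA synthesis. The gene acs-4 (F37C12.7, chromosome III) encodes a long-chain acyl-CoA synthetase, known in worms for supplying fatty acyl-CoA for protein myristoylation in the germline. Its shared region, at 7166663 to 7167074, lay outside the lower end. The window centres stood 966 bp from that end in replicate 1, 976 bp in replicate 2 and 964 bp in replicate 3 (968 ± 6.43 bp, SD, n = 3). The 3 lists thus placed the site within 12 bp of each other. The next gene, K04G7.1, was 1910 bp away, which makes acs-4 the nearest protein-coding gene.

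The gene acs-19 (C36A4.9, chromosome III), which encodes an acetyl-CoA synthetase, was the only member near more than 1 shared region and had one beyond each end. The region at the lower end, 3862863 to 3863359, had its centres 1367, 1330 and 1427 bp from the gene in replicates 1 to 3 (1374 ± 49 bp, SD, n = 3). That at the upper end, 3867343 to 3867785, had them at 463, 488 and 445 bp (465 ± 21.6 bp). Each of these regions had a closer neighbour. The lower one lay 147 bp from brc-1, a DNA repair gene, and the upper one lay 291 bp from rpl-3, a ribosomal protein gene.

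The genes acs-20 and acs-22 encode acyl-CoA synthetases of the fatty acid transport protein family, known in worms for the lipid barrier of the body surface. At acs-20 (F28D1.9, chromosome IV) the shared region, 12391072 to 12391502, stood 850, 819 and 833 bp outside the lower end in replicates 1 to 3 (834 ± 15.5 bp, SD, n = 3). Other genes were closer to it. The ribosomal protein gene rps-23 lay 235 bp from the region's centre. A gene of sugar donor synthesis for glycosylation, dpm-3, lay 300 bp from it, between the region and acs-20.

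At acs-22 (D1009.1, chromosome X) the shared region, 8930950 to 8931365, lay directly beside the gene. Its centres were 14, 30 and 20 bp outside the lower end in replicates 1 to 3 (20.8 ± 8.08 bp, SD, n = 3), and no other protein-coding gene counted as near it. A second shared region, 8936832 to 8937247, lay inside acs-22, with centres 2216, 2232 and 2219 bp from the upper end. Replicate 1 alone had a further window inside the gene, 4002 bp from the lower end. Thus acs-22, of 8085 bp, held shared regions at an end and within its body, the latter outside the limits that define nearness.

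The gene lipl-2 (F46B6.8, chromosome V), of the lipase family, had a shared region at 9789787 to 9790194. The centres stood 1581, 1573 and 1577 bp outside its lower end (1577 ± 4.0 bp, SD, n = 3). The zinc finger gene ztf-7 was closer, at 284 bp. When each region was given to its nearest gene alone, acs-4 and acs-22 were the members left (2 of 55, 3.64%), against 4.34% of all protein-coding genes. The count of lipid genes thus depends on letting a region belong to several neighbours.

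**Figure D2:**
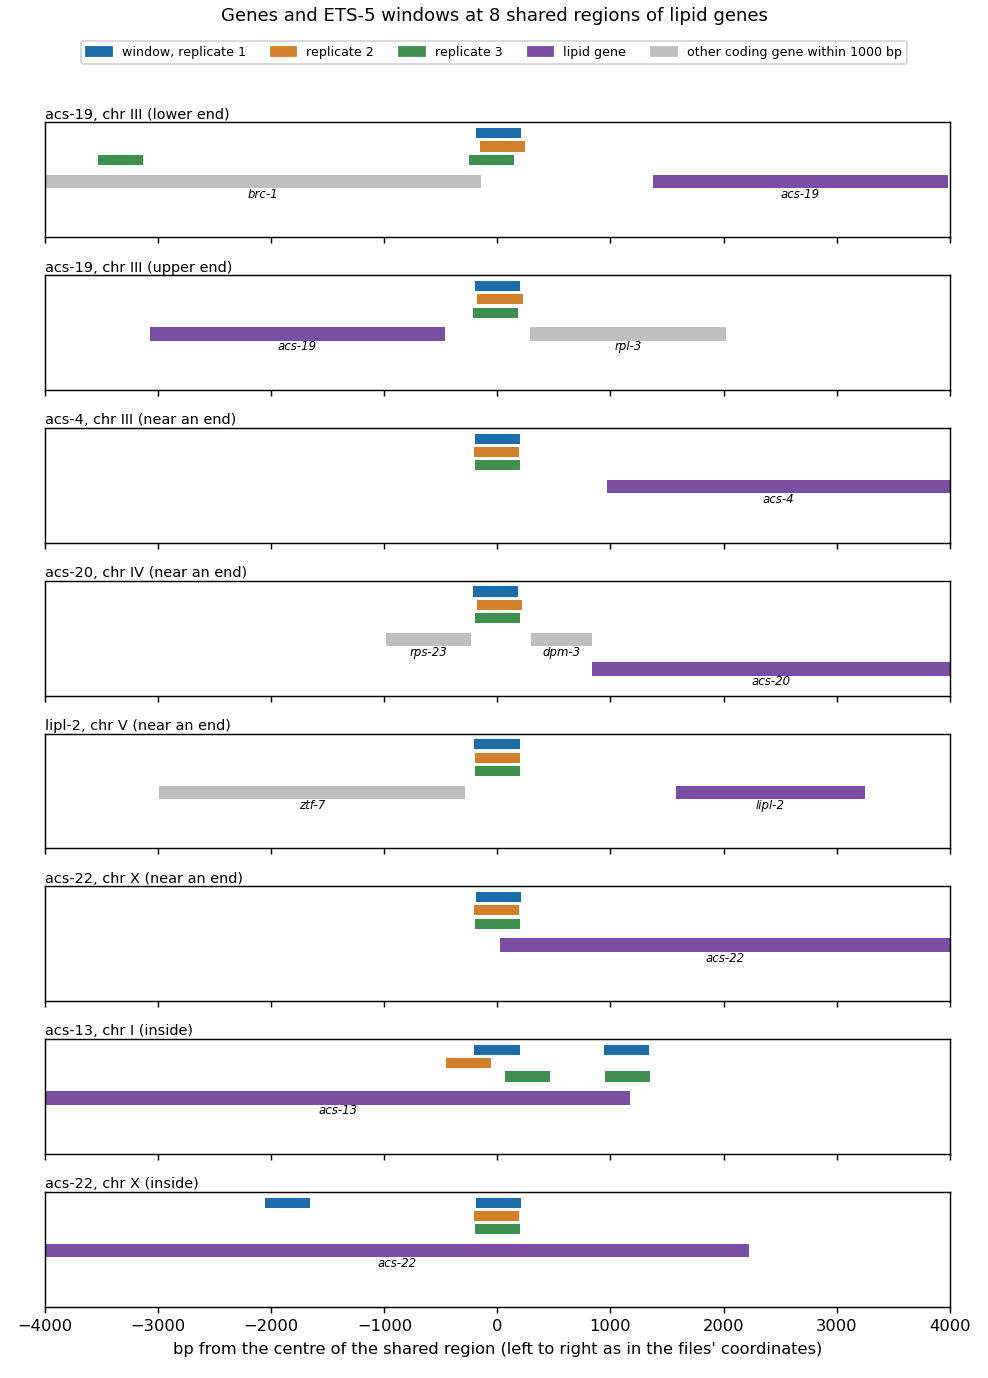
Protein-coding genes (purple for the lipid gene, grey for others within 1000 bp of the region's centre) and windows of the 3 replicates around 8 shared regions of lipid genes, in bp from the region's centre, in the direction of the lists' coordinates. The windows of acs-4, acs-20, acs-22 and lipl-2 stack over each other, with rps-23, rpl-3, brc-1 and ztf-7 closer to their regions than the lipid gene is, while the 3 windows inside acs-13 are staggered.

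Further acs genes had windows in part of the lists. The gene acs-13 (Y65B4BL.5, chromosome I), which encodes a long-chain acyl-CoA synthetase, had windows of replicates 1 and 3 just inside its upper end, 30 and 25 bp from it. Replicate 2 had none there. A shared region, 518014 to 518937, lay deeper inside the gene, with centres 1177, 1433 and 909 bp from the upper end in replicates 1 to 3. The windows of replicates 2 and 3 there did not overlap each other and were joined through that of replicate 1, so the lists did not mark 1 common site.

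The gene acs-16 (chromosome I) had windows of replicates 2 and 3, 1672 and 1676 bp outside its upper end, with dyb-1 closer to the region at 1487 bp. At acs-11 (chromosome II) the same replicates had windows 1893 and 1978 bp outside the lower end, with eas-1 closer at 210 bp and ctsa-1.1 at 400 bp. The remaining cases were held by replicate 1 alone. They were acs-2 (chromosome V), which encodes a synthetase for mitochondrial fatty acid oxidation that fasting induces in worms, with a window 1407 bp away, and acs-6 (chromosome II), with a window 769 bp away. In replicates 2 and 3 the nearest windows to acs-2 were 18050 and 15532 bp away.

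The other 13 acs genes had no window near them in any list. They were acs-1, acs-3, acs-5, acs-7, acs-10, acs-12, acs-14, acs-15, acs-17, acs-18, acs-21, acs-24 and acs-25. Of these acs-1, needed in worms for the use of branched-chain fatty acids, had its nearest windows 6448, 6428 and 6430 bp away in replicates 1 to 3. At acs-10 a shared region lay 2703 bp away, beyond the limit of 2000 bp.

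Among the desaturase genes, fat-2 alone had windows near it. It encodes the enzyme that turns oleic into linoleic acid, the first step towards polyunsaturated fats. Windows of replicates 1 and 2 stood 1153 and 1176 bp outside its lower end, in a region at 13322498 to 13322920 on chromosome IV, while the nearest window of replicate 3 was 12025 bp away. The neighbouring gene fat-1, of the omega-3 desaturase, had its nearest windows at 2259, 2238 and 3796 bp, outside the limit in all lists.

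The desaturases of saturated fats are encoded by fat-5, fat-6 and fat-7, which make monounsaturated fatty acids. For fat-6 the nearest windows were 42375, 42327 and 40825 bp away in replicates 1 to 3. For fat-7 they were 19804, 19811 and 41458 bp away, and for fat-5 131169, 106531 and 10959 bp. None of these distances came near the limit of 2000 bp, and fat-5 differed most between the lists. The genes fat-3 and fat-4, which encode later steps of polyunsaturated fat synthesis, are neighbours and had their nearest shared region at 19232 and 23130 bp.

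No elongase gene came within the limit, although elo-3 was just beyond it. A shared region lay 2259 bp from elo-3, with centres at 2284, 2283 and 2210 bp in replicates 1 to 3. For elo-1 and elo-2, which lengthen polyunsaturated and saturated chains, the nearest windows of any list were 14858 and 25353 bp away. The genes elo-5 and elo-6, which make branched-chain fatty acids, lay 5559 and 10458 bp from a window of replicate 1. In replicate 2 these distances were similar, at 5505 and 11190 bp. In replicate 3 they were 88292 and 76850 bp, so that list differed from the others at this locus. The other elongase genes, elo-4, elo-7, elo-8 and elo-9, had their nearest shared regions, as against single windows, between 12889 bp (elo-9) and 92128 bp (elo-4) away.

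Of the other lipase genes, lipl-8 had a window of replicate 3 alone, 1151 bp outside its lower end. In replicates 1 and 2 its nearest windows were 7304 and 7301 bp away. The gene lipl-4, of a lysosomal lipase known for its effect on lifespan, had its nearest windows at 10411, 10477 and 11653 bp. Those of lipl-3, a lipase gene induced by fasting in worms, were 7986, 7966 and 7962 bp away. At lipl-3 the 3 lists held the same shared region, outside the limit. The remaining lipase genes, lipl-1, lipl-5, lipl-6 and lipl-7, had their nearest shared regions between 7962 bp (lipl-6) and 119339 bp (lipl-5) away. Windows of replicates 1 and 2, but not of replicate 3, were closer to lipl-6, at 3980 and 3959 bp.

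Among the lipid binding protein genes, lbp-9 had a window of replicate 1 at 1846 bp and one of replicate 3 at 252 bp, which did not overlap. The first of them lay inside the nuclear receptor gene nhr-86. Replicate 2 had its nearest window 7279 bp away. The gene lbp-8, whose protein carries a lipid signal from the lysosome to the nucleus, had none closer than 71530 bp. The neighbours lbp-1, lbp-2 and lbp-3 on chromosome X lay 54156 bp or more from any window. A shared region was 3845 bp from lbp-6 and 6816 bp from its neighbour lbp-5. The last of the family, lbp-4 and lbp-7, had their nearest shared regions 9706 and 70802 bp away.

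**Figure D3:**
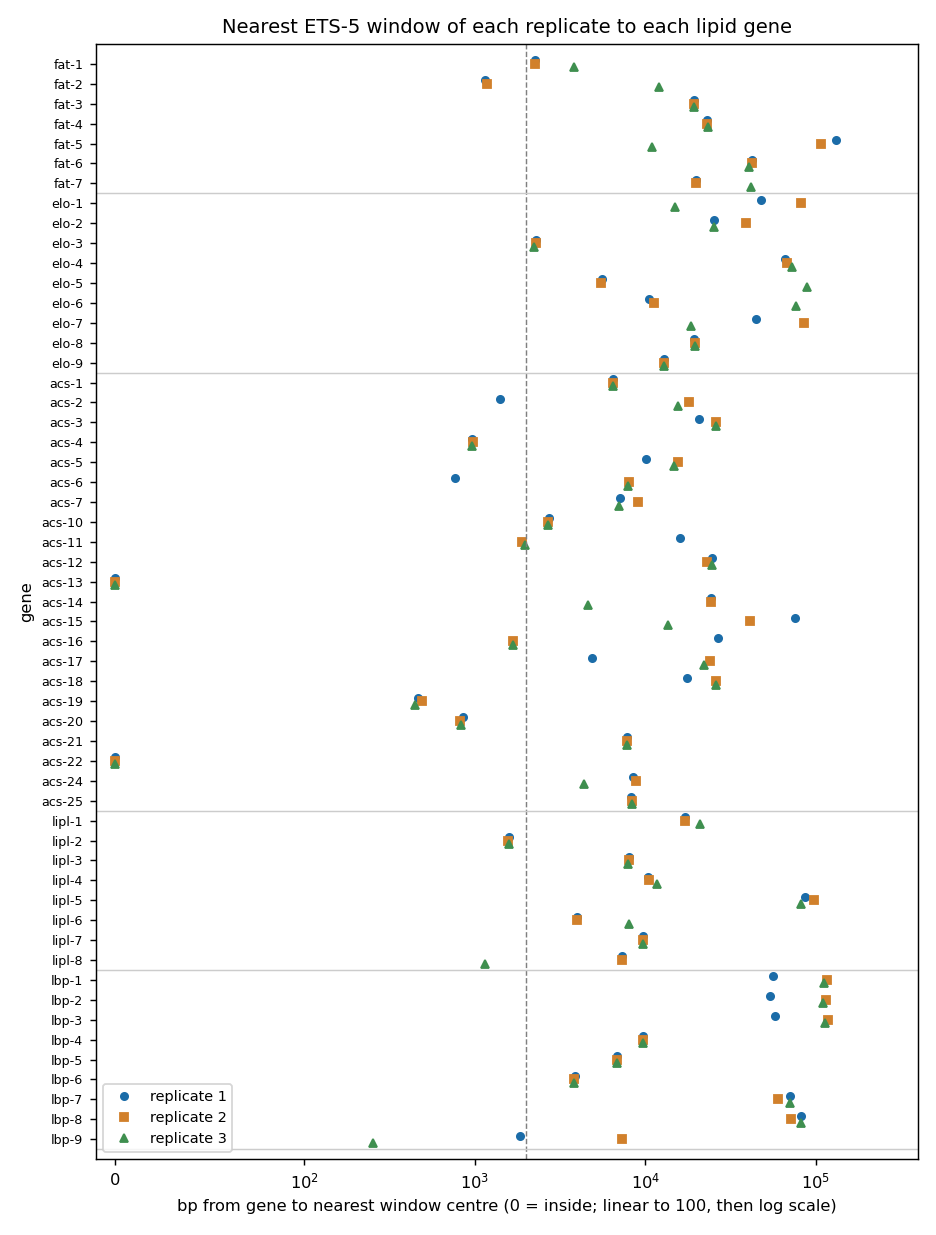
Distance in bp from each of the 55 lipid genes to the nearest window centre of each replicate (0 is inside the gene; linear up to 100 bp, then a log scale); the dashed line marks 2000 bp. The replicates coincide at acs-4, acs-19, acs-20, acs-22 and lipl-2, but also at genes beyond the line, such as acs-1, acs-21 and lbp-4. The 0 of acs-13 and acs-22 in each list is a window inside the gene, and at acs-13 these are not 1 common site. The genes elo-3 and acs-10 stand just to the right of the line in all lists.

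The order of lines in a list has no stated meaning and is given here only as a place. The upper region of acs-19 stood at line 572 of replicate 1, line 224 of replicate 2 and line 77 of replicate 3, and its lower region at lines 381, 344 and 323. The region of acs-4 stood at lines 286, 176 and 964. By the mean place over the lists these 3 ranked 128, 179 and 256 of the 1788 shared regions. The others stood further down, with lipl-2 at rank 666, acs-20 at 976 and acs-22 at 1157. The region inside acs-22 ranked 805 and that inside acs-13 ranked 1716.

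The replicates differed in these places. For acs-22 the lines were 757, 1298 and 2655, and for lipl-2 they were 1794, 717 and 515. The regions that 1 or 2 lists held at fat-2, acs-2, acs-6, acs-13, acs-16 and lipl-8 stood past 50% of the lines in each list that held them, while at acs-11 and lbp-9 a list placed 1 earlier. Over all windows near a lipid gene the median place was 47.1%, 24.6% and 49.9% of the list in replicates 1 to 3 (11, 9 and 11 windows). For windows near any protein-coding gene it was 49.3%, 49.3% and 44.4%.

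**Figure D4:**
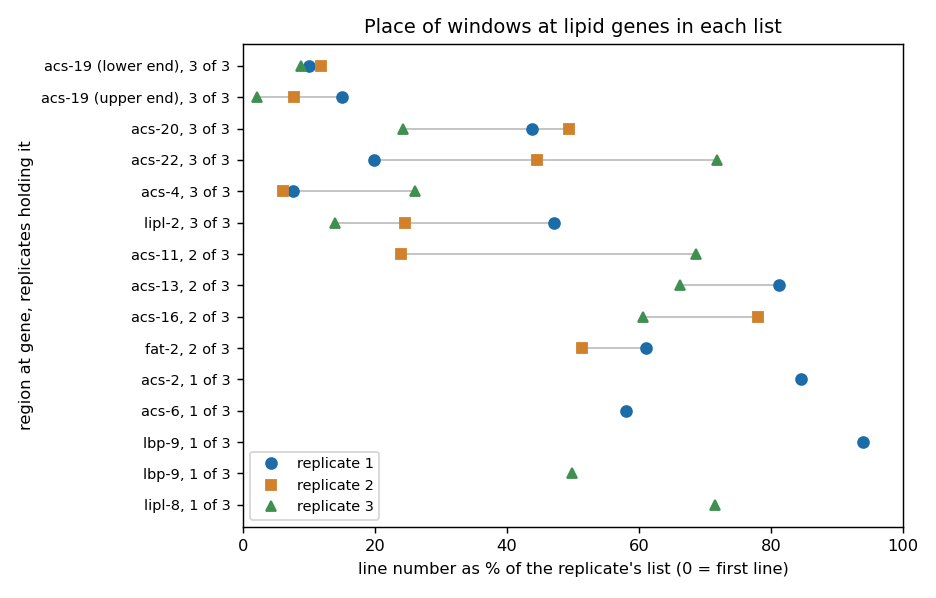
Line number, in percent of the list's length, of each window near a lipid gene in each replicate (symbols, joined by a line), with the number of replicates holding the region. The regions of acs-19 and acs-4 lie in the first 26.1% of every list, while those of acs-22 spread from 19.9% to 71.8%.

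Other genes of lipid metabolism were counted in 8 lists, whose 86 genes were all in the gene table. Shared regions lay near 12 of them (14.0%, against 7.44% of all protein-coding genes). Of the regulator list 3 of 10 did, of phospholipid synthesis 3 of 11, of fat storage and lipid droplets 2 of 7 and of mitochondrial oxidation 2 of 24. Of sphingolipid genes 1 of 11 did and of fatty acid synthesis genes 1 of 2. The lists of peroxisomal oxidation, with 13 genes, and of yolk lipoproteins, with 8, had none. For 6 of the 12 genes the region was also near another protein-coding gene. A window of at least 1 replicate lay near 20 of the 86 genes, against 4069 of all 19971 protein-coding genes (20.4%). At this looser count the share of the listed genes was nearer to the background than for shared regions. The lists were chosen with earlier results of these data known, were counted at this setting alone and were not tested.

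The regulators were nhr-49, a nuclear receptor gene that governs desaturation and oxidation genes in worms, hlh-30, which controls lysosome and lipase genes, and nhr-62, a nuclear receptor gene. The region at nhr-49, also near K10C3.5, lay 404 bp outside the gene, at lines 2916, 1926 and 1804 of replicates 1 to 3. That at hlh-30 lay 335 bp outside, at lines 2324, 1686 and 2962. The region at nhr-62, also near zig-1, lay 1669 bp outside, at lines 1057, 1332 and 2614. None of these 3 regions stood near the top of the lists, whose order has no stated meaning. The genes sbp-1 and mdt-15, central activators of desaturase genes in worms, had no window near them.

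Of the regions in the 8 lists, that of seip-1, the worm seipin gene of lipid droplet formation, came first by mean place. It lay 250 bp outside the gene, at lines 248, 165 and 152, and ranked 74. A region 1109 bp outside acdh-2, an acyl-CoA dehydrogenase gene, ranked 124 and was also near the insulin-like peptide gene ins-13. One 310 bp inside cept-2, a gene of phospholipid head group transfer, ranked 145 and was also near vha-13. The region of hyl-2, a ceramide synthase gene, ranked 473 and lay 345 bp outside. The others were further down, with mboa-6, whose region was also near the ribosomal protein gene rps-15A and other genes, at rank 760, cept-1 at 837, cpt-3 at 854, the fat lipase gene atgl-1, whose region was also near fhip-1, at 1175 and pod-2, the acetyl-CoA carboxylase gene, at 1349.

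As the lists hold no expression values, the cells behind the windows could not be checked with markers. Of tissue marker genes, shared regions lay near 1 of 9 for intestine (pept-1), 0 of 4 for hypodermis, 0 of 3 for muscle and 3 of 5 for neurons (snb-1, unc-64 and rgef-1), against 7.44% of all protein-coding genes. The region of pept-1 was also near 2 other protein-coding genes. The marker lists were chosen with earlier results of these data known, and their shares were not tested. These counts describe where windows lie and mark no cell type.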

How the data were processed

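The authors deposited 1 list per ETS-5 precipitate, with the chromosome, start and end of each window and no header. Per the submitters' processing notes, Bowtie2 and MACS2 were used; the versions, build, threshold, control and meaning of the line order were not given in the sources used here. Windows were taken to count from 0 and their middle as the summit. Windows overlapping by at least 1 bp were merged, and the centres of a region's windows were averaged.

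Gene ends came from RefSeq (WBcel235). As a check of the coordinate systems, 35.4% of shared regions lay inside protein-coding genes as deposited, 36.6% and 36.1% after shifts of 100 bp, and 63.8% and 64.4% after 5000 bp.

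No test was run, since only 1 group has lists. Members and gene lists were chosen with earlier results of these data known. Named are all members with a window near them, and the genes of other lists near a shared region. Further members were named after their values were seen, as were sbp-1 and mdt-15. The planned motif search needed sequences and was not run. The other 9 samples were not analysed here. Python 3.11.15, pandas 2.3.3 and bedtools 2.31.1 were used, and merging and nearness were tested on simulated data.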

Additional observations from a re-analysis of the deposited data

How the results depend on the processing

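The 5 genes acs-4, acs-19, acs-20, acs-22 and lipl-2 were all near a shared region with coordinates shifted by 100 bp either way. That shift was added after the data were seen. They were also near one with an overlap of 100 bp and with each replicate left out in turn. The window centres of their regions lay at most 97 bp apart, so these 400 bp windows overlapped in every pair of lists. The overlap and leave-out outcomes were thus fixed in advance. So was that of the shift, as the regions lay 21 to 1577 bp outside an end, more than 100 bp from either limit. None of these outcomes is a sign of stability. The share of members moved relative to that of all genes. With the nearest gene alone it was the lower, with 2 members, both acs, and lipl 0 (3.64% against 4.34%, 867 genes), and with 5000 bp outside about equal, with 8 members, elo 1 and lbp 1 among them (14.5% against 14.6%, 2922 genes). It was the higher with 1000 bp outside and 0 bp inside, with 4 members and lipl 0 (7.27% against 4.25%, 848 genes), and in the first 50% of lines, with 4 members, all but acs-22 (7.27% against 3.4%, 679 genes). Regions of at least 2 replicates gave 9 members, fat 1 and acs 7 (16.4% against 12.5%, 2487 genes). Members per replicate were 4.67 with the nearest gene alone (8.48% against 7.85%), 15 with 5000 bp outside (27.3% against 25%), 4.67 with 1000 bp outside and 0 bp inside (8.48% against 7.93%) and 5.33 in the first 50% of lines (9.7% against 7.54%). Leaving out 1 replicate gave 6 to 7 members (10.9% to 12.7%, against 8.32% to 9.81% of all genes), and 0 to 1 fat genes. Counting any place inside a gene added acs-13, through the region there that was not 1 common site (6 members, 10.9% against 9.22%). The alternative of gene starts alone was not run, since the table gives no strand. No paired analysis was possible because only the precipitates of 1 strain have lists. Depth is unknown, so a missing window means only that a list holds none.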
